A study of Arabidopsis thaliana with 12 samples.

Results

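The SHI/STY and NGATHA genes encode transcription factors that build the style, the neck of the gynoecium between ovary and stigma. The 10 genes described here were taken by gene identifier from the 27416 gene rows of a count table. They are 6 SHI/STY members (STY1, STY2, SHI, LRP1, SRS5 and SRS7) and 4 NGATHA members (NGA1 to NGA4). The counts came from shoot apices of Arabidopsis thaliana, the inflorescence tip with its young flower buds, in 3 genotypes of 4 libraries each. WT was Col-0. The mutant ap2-12 carries a lesion in the floral regulator gene APETALA2 (AP2), and rAP2-VENUS is represented by the single line #A6. The labels name no treatment and no plant age. All plants grew in long days (16 h light, 8 h dark) and were harvested when the main stem measured 1 cm. The labels mention 15 apices without saying whether each library pooled that number. They do not state what the r in rAP2-VENUS means, which promoter drives the construct or whether the line keeps a normal AP2 gene.

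SHI/STY proteins bind DNA through a RING-like zinc finger and share an IGGH domain. In Arabidopsis they act redundantly in the apical gynoecium, stamens and leaves, and STY1 directly activates YUC4, a gene for an auxin-producing flavin monooxygenase. NGATHA proteins carry a B3 DNA-binding domain, also act redundantly, and are required for style and stigma. Loss of several members of either family leaves the apical gynoecium open. Both families promote auxin synthesis there, and NGATHA genes also limit growth at leaf and petal margins. AP2 acts in sepals and petals and restricts the carpel identity gene AGAMOUS.

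Some members share letters near their annotated starts, namely the 4 NGATHA genes and the pair SRS5 and SRS7. No shared stretch is shown for STY1, STY2, SHI and LRP1. The stretches below were read from the RefSeq TAIR10.1 genome because they tie together genes whose levels are compared later. They were picked after the windows had been read, so their presence in these genes is a description. Each is 30 bases of the gene's own strand, 5′ to 3′, and positions are counted from the annotated start. In the 4 NGATHA genes the capitals mark the shared run TTCATGGGNCCC, which ends in GGNCCC, core letters bound by TCP factors of class II.
NGA1: tgaactgaaccagatttaTTCATGGGTCCC
NGA2: atgaacagaaccagattgTTCATGGGCCCC
NGA3: atgacccgaaccatatcaTTCATGGGCCCC
NGA4: atgacccgaaccacaccaTTCATGGGCCCC
The NGA1 stretch lies at chr2:19260849-19260878 on the plus strand, with its first base at -57. That of NGA2 lies at chr3:22951382-22951411 on the plus strand, inside the gene, with its first base at 60. That of NGA3 lies at chr1:13697-13726 on the minus strand from -12, and that of NGA4 at chr4:639154-639183 on the plus strand from -93. GGNCCC on either strand was found in 8.68% of 27443 windows reaching from 250 bases before to 50 after a gene start. The longer run TTCATGGGNCCC was found in 6 of these windows (0.0219%), and NGA1, NGA3 and NGA4 are 3 of the 6 genes. In NGA2 the run shown lies beyond the window. All 4 NGATHA windows held AAAAGGACAA, which overlaps neither and occurs in 0.332% of windows. NGA3 and NGA4 shared an exact run of 19 bases, the longest between any pair of members.

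SRS5 and SRS7 share a different stretch, and the capitals below mark the longest unbroken run found in both.
SRS5: atatttaTGTGATGGGGATTCActcaaact
SRS7: tatttatTGTGATGGGGATTCAttgaaact
The SRS5 stretch lies at chr1:28353503-28353532 on the minus strand, 18 bases inside the gene, and the SRS7 stretch at chr1:6840301-6840330 on the minus strand from -17. TGTGATGGGGATTCA on either strand occurred in 2 of the 27443 windows, those of SRS5 and SRS7. TTTGTT, letters bound by AP2 in Arabidopsis, occurred on either strand in the windows of 7 of 10 members and in 61.4% of all windows. The STY1 window held 5 matches, and 0.798% of windows held at least as many. None of these matches shows binding in the apex.

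The 12 libraries held 9680133 to 15152704 counts, and a member had 19 to 340 counts in a library. All 10 members passed the filter on low counts. Levels are given as CPM, read counts set against the library total after TMM scaling. AP2, the gene mutated in ap2-12, stood at 92.8, 50.3, 42.3 and 44.4 CPM in WT replicates 1 to 4. The rAP2-VENUS libraries held 58.1, 46.6, 41.3 and 42.1 CPM of AP2, and the ap2-12 libraries, all below both other genotypes, 20.6, 15.6, 17.3 and 15.5 CPM. Reads of the AP2 gene and of the construct cannot be told apart in these counts. Meristem and carpel genes were both detected in these apices, including STM (25.7 to 82.2 CPM) and AG, while the stem cell gene CLV3 had 0 to 5 counts. Replicates are described as independent, without saying whether plants or days were separate, so the p-values measure the spread between these libraries. In such bulk tissue, fewer expressing cells and less RNA per cell cannot be told apart.

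In ap2-12 the members did not move as a family. STY1, SRS5 and SRS7 rose, SHI, LRP1 and NGA1 fell, and STY2, NGA2, NGA3 and NGA4 were not called. These are 6 of 10 members called by edgeR's quasi-likelihood test at a Benjamini-Hochberg adjusted p under 0.05, where 15.2% of the 18807 genes tested were called (5.65% higher and 9.59% lower). In 7 of 10 members the 4 ap2-12 libraries did not overlap the 4 WT libraries, against 18.6% of all genes. Of the 7, 4 were higher and 3 lower, against 7.66% and 11% of all genes. The median log2 fold change was 0.23 over the members and 0.00 over all genes. The members were chosen with earlier results of these data known. Their shares beside those of all genes, here and below, are thus a description.

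**Figure D1:**
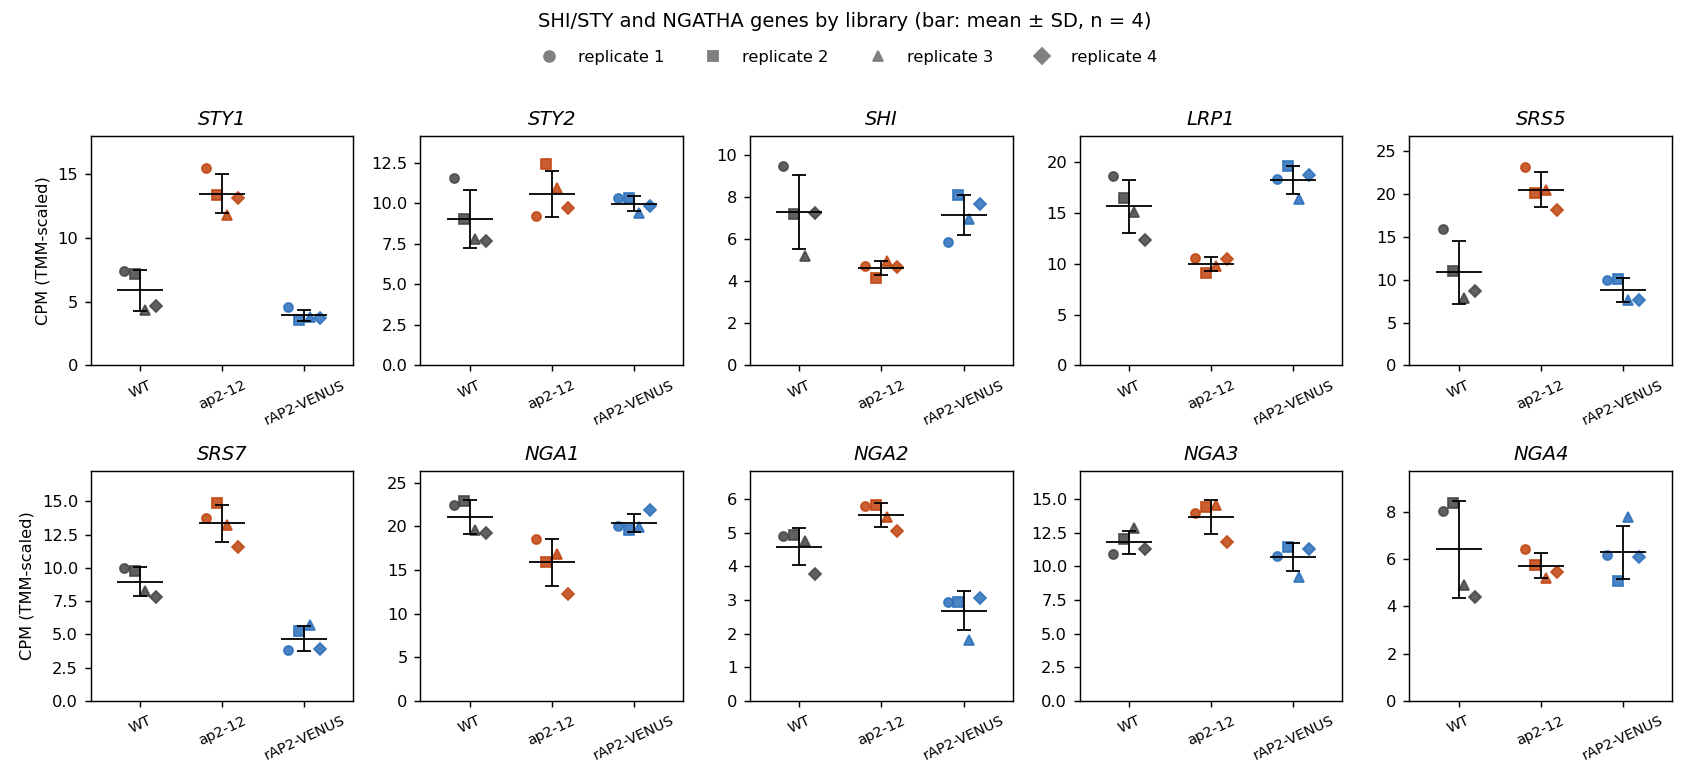
Level of each member in each library, in CPM on TMM-scaled totals (y axis, from 0), by genotype (x axis); marker shapes give the replicate number, the bar the mean and the whiskers the SD of 4 libraries. STY1, SRS5 and SRS7 were highest in ap2-12, LRP1 and SHI lowest there, and SRS7 and NGA2 lowest in rAP2-VENUS.

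STY1 (AT3G51060, chr3:18964129-18966405), the member best known for promoting style tissue, gave the largest rise among the members. WT libraries held 7.40, 7.22, 4.31 and 4.69 CPM of STY1, in the order of replicates 1 to 4. The ap2-12 libraries held 15.5, 13.4, 11.8 and 13.2 CPM. Every ap2-12 library thus lay above every WT library. The rise was 2.29-fold (log2 fold change 1.20, SE 0.18, edgeR adjusted p = 0.000685). The rAP2-VENUS libraries held 4.60, 3.55, 3.80 and 3.75 CPM, within or below the WT range. That difference was not called (log2 fold change -0.58, SE 0.19, edgeR adjusted p = 0.311), although each rAP2-VENUS library was below the WT library of the same number. From ap2-12 to rAP2-VENUS the drop was 3.42-fold (log2 fold change -1.77, SE 0.19, edgeR adjusted p = 2.85e-05).

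STY2 (AT4G36260, chr4:17155556-17157645) acts redundantly with STY1 in the style. Its levels were 11.6, 9.04, 7.82 and 7.68 CPM in WT and 9.25, 12.4, 10.9 and 9.72 CPM in ap2-12. In rAP2-VENUS they were 10.3, 10.4, 9.41 and 9.84 CPM. The 3 genotypes overlapped. STY2 was not called in ap2-12 against WT (log2 fold change 0.24, SE 0.14, edgeR adjusted p = 0.308). An approximate 95% interval, from the SE and a normal multiplier, was -0.04 to 0.51 for STY2 and 0.84 to 1.55 for STY1. Such intervals are too narrow with few libraries. The ratio of STY1 to STY2, given below, did not pass adjustment, though its exact test had reached the smallest p possible. That test therefore cannot decide whether the 2 genes differed in response.

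SRS5 (AT1G75520, chr1:28351522-28353549) and SRS7 (AT1G19790, chr1:6838120-6840313) also act in stamens and other floral organs. SRS5 stood at 15.9, 11.0, 7.82 and 8.67 CPM in WT and at 23.2, 20.2, 20.5 and 18.2 CPM in ap2-12. All ap2-12 values were above all WT values, and WT replicate 1 stood nearest to them. The rise was 1.90-fold (log2 fold change 0.93, SE 0.19, edgeR adjusted p = 0.00617). SRS5 in rAP2-VENUS, at 9.96, 10.1, 7.60 and 7.65 CPM, overlapped WT and was not called (log2 fold change -0.29, edgeR adjusted p = 0.868).

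SRS7 was called in rAP2-VENUS against WT and SRS5 was not. The ratio of SRS5 to SRS7, given below, overlapped between these genotypes (exact permutation, adjusted p = 0.098). WT libraries held 10.0007, 9.78, 8.26 and 7.82 CPM of SRS7 and ap2-12 libraries 13.8, 14.9, 13.2 and 11.5 CPM. The rAP2-VENUS libraries held 3.85, 5.22, 5.70 and 3.89 CPM. The 3 genotypes did not overlap for SRS7, with ap2-12 highest and rAP2-VENUS lowest. The rise in ap2-12 was 1.49-fold (log2 fold change 0.58, SE 0.15, edgeR adjusted p = 0.018). That call was lost without WT replicate 4 (edgeR adjusted p = 0.0525) and without ap2-12 replicate 2 (0.0554).

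SRS7 was the only member called in rAP2-VENUS against WT, where 0.627% of genes were called (0.261% higher and 0.367% lower). It was 1.93-fold lower there (log2 fold change -0.95, SE 0.16, edgeR adjusted p = 0.0162). WT and rAP2-VENUS libraries with the same replicate number deviated together, and a fit with that number as a block called 424 genes in place of 118. SRS7 was then at an adjusted p of 0.00379, and it remained the only member called. The SRS7 call was lost without WT replicate 2 (0.0617), without rAP2-VENUS replicate 4 (0.0535), without replicate 1 of all 3 genotypes (0.126) and in a fit of only these 2 genotypes (0.0609). DESeq2 put it at 1.87e-05.

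SHI (AT5G66350, chr5:26503115-26506809), first known as a repressor of gibberellin responses, and LRP1 (AT5G12330, chr5:3987375-3989876), known from lateral root primordia, went down in ap2-12. LRP1 stood at 18.6, 16.5, 15.1 and 12.4 CPM in WT and at 10.6, 9.11, 9.74 and 10.5 CPM in ap2-12. No ap2-12 library reached the lowest WT library. The drop was 1.56-fold (log2 fold change -0.64, SE 0.12, edgeR adjusted p = 0.00343). In rAP2-VENUS LRP1 was at 18.3, 19.7, 16.3 and 18.8 CPM, overlapping WT (log2 fold change 0.23, edgeR adjusted p = 0.72). LRP1 was higher in rAP2-VENUS than in ap2-12 by 0.87 on the log2 scale (SE 0.12, edgeR adjusted p = 0.000274).

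SHI stood at 9.48, 7.22, 5.19 and 7.25 CPM in WT and at 4.74, 4.15, 4.97 and 4.66 CPM in ap2-12. The groups did not overlap, but WT replicate 3 lay just above the highest ap2-12 library. The drop was 1.56-fold as well (log2 fold change -0.65, SE 0.18, edgeR adjusted p = 0.026). The call was lost without WT replicate 1 (0.0703), WT replicate 2 (0.0553), WT replicate 4 (0.0625), ap2-12 replicate 2 (0.0843) or ap2-12 replicate 4 (0.0635). In rAP2-VENUS SHI was at 5.88, 8.09, 6.94 and 7.65 CPM, within the WT range and not called (log2 fold change -0.02, edgeR adjusted p = 0.997). SHI was higher in rAP2-VENUS than in ap2-12 by 0.62 (SE 0.18, edgeR adjusted p = 0.0253). That call was lost without ap2-12 replicate 2 (0.0822), ap2-12 replicate 4 (0.0579), rAP2-VENUS replicate 2 (0.0738) or rAP2-VENUS replicate 4 (0.0654). SHI shares 173 exon bases with AT5G66340 on the opposite strand, which had 0 counts in all 12 libraries. The other 9 members overlap no annotated gene.

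Among the NGATHA genes, NGA1 (AT2G46870, chr2:19260906-19262533) was the only member called in ap2-12 against WT. It stood at 22.5, 22.9, 19.6 and 19.3 CPM in WT and at 18.6, 15.9, 16.8 and 12.2 CPM in ap2-12. The groups did not overlap, and ap2-12 replicate 4 was lowest. NGA1 fell by 0.41 on the log2 scale (SE 0.12, edgeR adjusted p = 0.0354), a 1.33-fold drop. The call was lost without WT replicate 1 (0.0818), WT replicate 2 (0.098), ap2-12 replicate 2 (0.0871), ap2-12 replicate 3 (0.0607) or ap2-12 replicate 4 (0.0873). In rAP2-VENUS NGA1 was at 20.1, 19.6, 19.96 and 21.9 CPM and overlapped WT (log2 fold change -0.05, edgeR adjusted p = 0.991). Against ap2-12 those libraries were all higher, by 0.36 (SE 0.12), which edgeR did not call (adjusted p = 0.0512) and DESeq2 did (0.0342). Without ap2-12 replicate 1 the edgeR adjusted p was 0.0229.

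NGA2 (AT3G61970, chr3:22951323-22953265) showed its lowest values in rAP2-VENUS. It stood at 4.90, 4.92, 4.75 and 3.77 CPM in WT, at 5.81, 5.83, 5.46 and 5.06 CPM in ap2-12, and at 2.94, 2.95, 1.81 and 3.04 CPM in rAP2-VENUS. The 3 genotypes did not overlap. Against WT the log2 fold change was -0.76 in rAP2-VENUS (SE 0.18, edgeR adjusted p = 0.0961) and 0.27 in ap2-12 (SE 0.17, adjusted p = 0.331), and neither was called. DESeq2 called the difference in rAP2-VENUS (adjusted p = 0.0218). NGA2 and SRS7 were the 2 members whose rAP2-VENUS and WT libraries did not overlap, against 5.02% of all genes (2.39% higher and 2.63% lower). Both lay lower. Between rAP2-VENUS and ap2-12, NGA2 fell by 1.03 (SE 0.18, edgeR adjusted p = 0.00126), a 2.05-fold drop.

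NGA3 (AT1G01030, chr1:11649-13714) stood at 10.9, 12.0, 12.9 and 11.3 CPM in WT, at 14.0, 14.4, 14.6 and 11.8 CPM in ap2-12 and at 10.8, 11.4, 9.22 and 11.3 CPM in rAP2-VENUS. The ap2-12 and rAP2-VENUS libraries did not overlap, and each overlapped WT. NGA3 fell by 0.35 from ap2-12 to rAP2-VENUS (SE 0.11, edgeR adjusted p = 0.0323). The call was lost without ap2-12 replicate 1 (0.0606), 2 (0.0743) or 3 (0.0883), or without rAP2-VENUS replicate 1 (0.054) or 3 (0.0936). NGA4 (AT4G01500, chr4:639247-640976) stood at 8.02, 8.36, 4.90 and 4.41 CPM in WT, at 6.42, 5.76, 5.18 and 5.47 CPM in ap2-12 and at 6.18, 5.06, 7.79 and 6.09 CPM in rAP2-VENUS. All 3 genotypes overlapped for NGA4, and no comparison called it (edgeR adjusted p = 0.665, 0.997 and 0.722). Its WT libraries fell into a higher pair, replicates 1 and 2, and a lower pair, replicates 3 and 4.

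**Figure D2:**
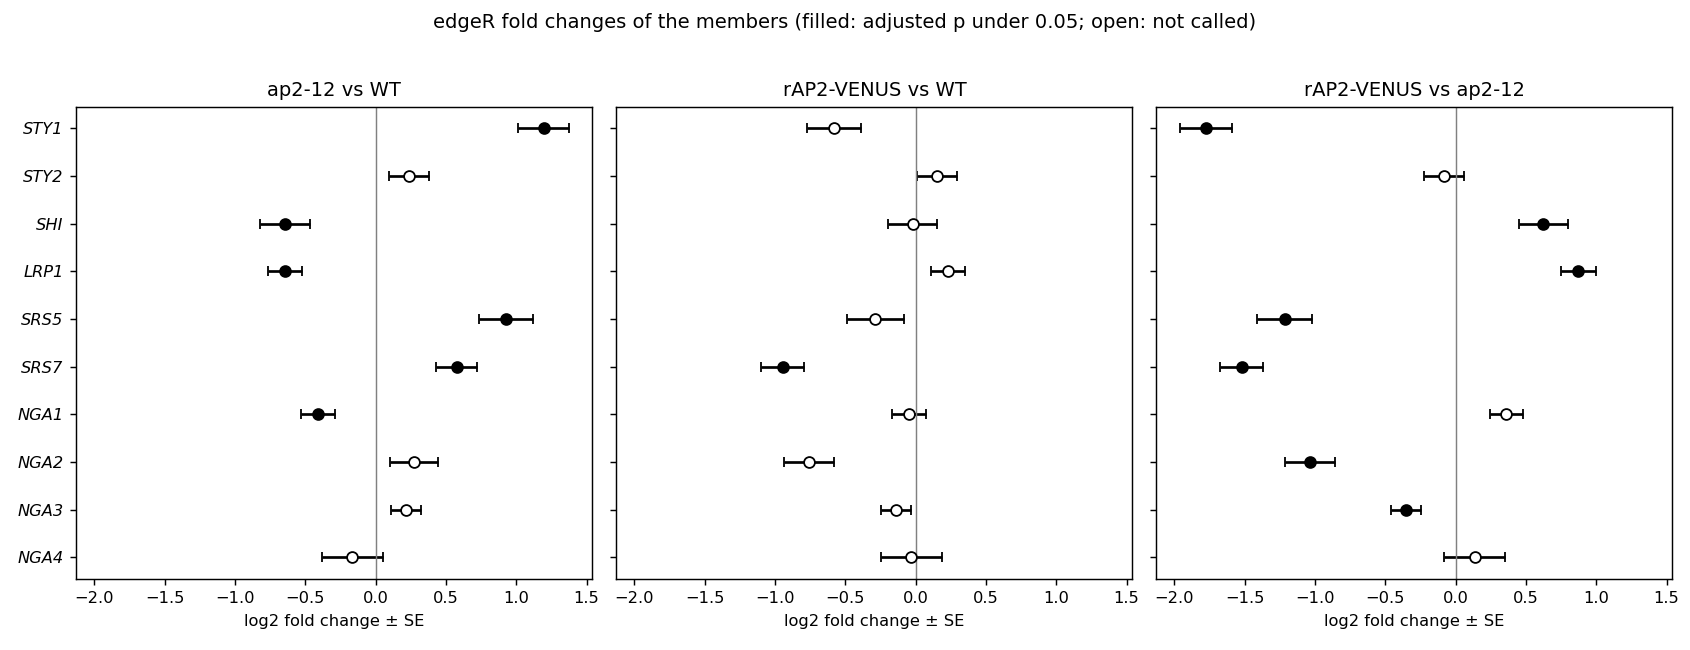
Log2 fold changes of the 10 members (x axis) with their SE from edgeR's fit of all 12 libraries, by comparison; filled points have an adjusted p under 0.05. Filled points number 6 in ap2-12 against WT, 1 in rAP2-VENUS against WT and 7 in rAP2-VENUS against ap2-12.

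The comparison of rAP2-VENUS with ap2-12 called 7 of 10 members, 2 higher (SHI and LRP1) and 5 lower (STY1, SRS5, SRS7, NGA2 and NGA3), where 19.6% of genes were called (11.7% higher and 7.86% lower). SRS7 gave a 2.87-fold drop (log2 fold change -1.52, SE 0.15, edgeR adjusted p = 2.1e-05) and SRS5 a 2.32-fold drop (log2 fold change -1.21, SE 0.20, adjusted p = 0.000812). In 8 of 10 members the groups did not overlap, against 24.5% of all genes, 3 higher and 5 lower against 13.9% and 10.7%. The 2 comparisons with WT share the WT libraries, and both comparisons with ap2-12 share the ap2-12 libraries, so their values are given side by side and not as separate evidence. The log2 differences of ap2-12 and of rAP2-VENUS from WT were 1.20 and -0.58 for STY1, 0.93 and -0.29 for SRS5, and 0.58 and -0.95 for SRS7. They were -0.64 and 0.23 for LRP1, -0.65 and -0.02 for SHI, and 0.24 and 0.15 for STY2. In the NGATHA genes they were -0.41 and -0.05 for NGA1, 0.27 and -0.76 for NGA2, 0.22 and -0.14 for NGA3, and -0.17 and -0.03 for NGA4.

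Summed over the 6 SHI/STY members, the level was 48.5 to 73.0 CPM in WT, 67.7 to 77.0 CPM in ap2-12 and 49.8 to 56.9 CPM in rAP2-VENUS. Summed over the 4 NGATHA members it was 38.7 to 48.2, 34.6 to 44.8 and 38.8 to 42.3 CPM. WT overlapped both other genotypes in each sum. The composition of the sums differed more visibly. On CPM per kilobase of exon, the scale used here to set genes side by side, STY1 made up 10.9% ± 1.32 (SD, n = 4) of the SHI/STY sum in WT, and 18.7% ± 1.61 and 8.21% ± 1.07 in ap2-12 and rAP2-VENUS. LRP1 made up 21.9% ± 2.20, 10.3% ± 1.03 and 28.4% ± 1.39 in the same order. Shares within a sum are not independent, since one share can grow only as others shrink. Exon length was merged over all annotated transcripts of a gene. LRP1 then counts as 1 exon of 2.502 kb with 1262 coding bases, and SHI as 2.608 kb with 1045. STY1 has 1.865 kb with 1113 coding bases. The levels per kilobase of LRP1 and SHI may therefore be too low beside those of other members. In the NGATHA sum, NGA1 held 50.4% ± 1.41 in WT, with 41.2% ± 2.72 in ap2-12 against 53.0% ± 0.674 in rAP2-VENUS, while NGA2 held 9.18% ± 0.607, 12.2% ± 0.741 and 5.84% ± 1.23.

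**Figure D3:**
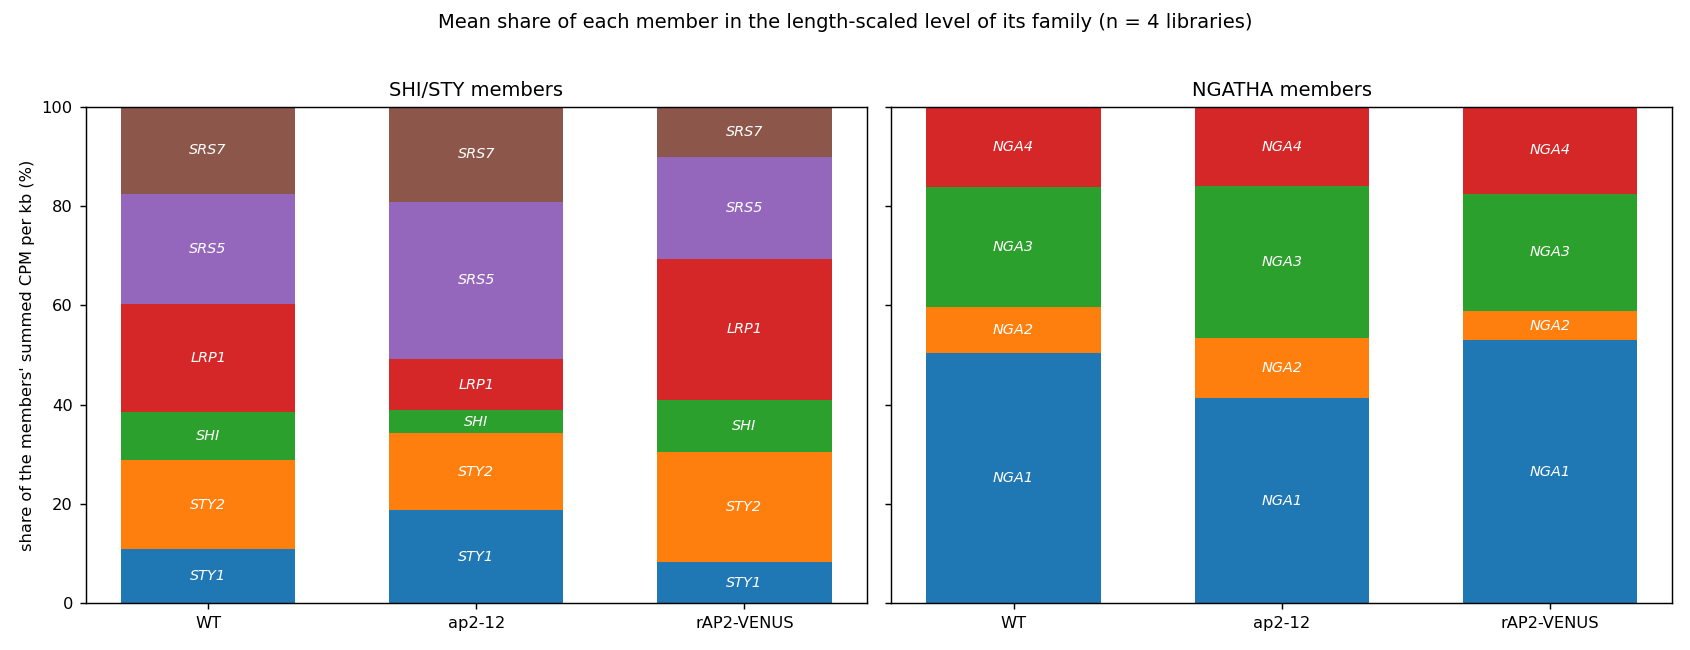
Mean share of each member in the summed CPM per kilobase of its family (y axis, %) by genotype (x axis), over 4 libraries. The SRS5 share was 22.2%, 31.7% and 20.5% in WT, ap2-12 and rAP2-VENUS, and the SHI share 9.69%, 4.60% and 10.7%.

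Ordered by CPM per kilobase, NGA1 led in WT at 12.9 ± 1.17, clear of every other member. The next 8 members, from SRS5 (6.51 ± 2.18) to SHI (2.79 ± 0.672), and NGA2 (2.36 ± 0.283) each overlapped the neighbour in the order. In ap2-12 SRS5 came first at 12.3 ± 1.23 CPM per kilobase and overlapped NGA1 at 9.76 ± 1.64. STY1, in place 8 of 10 in WT, was in place 4 in ap2-12 at 7.22 ± 0.819 CPM per kilobase and overlapped SRS7 and NGA3 beside it. SHI was last in ap2-12 at 1.78 ± 0.132 CPM per kilobase, below NGA2 without overlap. That level rests on the merged exon length of SHI, as do those of LRP1 on its own. In rAP2-VENUS NGA1 (12.5 ± 0.630) and then LRP1 (7.30 ± 0.558) led without overlap, and NGA2 was last at 1.38 ± 0.303 CPM per kilobase, below STY1 without overlap.

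Ratios of 2 members within a library do not depend on scaling, and 4 pairs were compared between genotypes in 12 tests. The log2 ratio of STY1 to STY2 counts was -0.64, -0.32, -0.85 and -0.71 in WT, 0.74, 0.11, 0.11 and 0.44 in ap2-12, and -1.16, -1.53, -1.30 and -1.38 in rAP2-VENUS. STY1 counts were thus below STY2 counts in all WT and rAP2-VENUS libraries and above them in all ap2-12 libraries. The mean difference was 0.98 for ap2-12 against WT, -0.71 for rAP2-VENUS against WT and -1.69 for rAP2-VENUS against ap2-12. Each reached p = 0.0286, the smallest that an exact 2-sided permutation of 4 against 4 libraries can give, and 0.0571 after adjustment over the 12 tests.

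The NGA1 to NGA2 log2 ratio was 2.19, 2.21, 2.04 and 2.34 in WT, 1.67, 1.45, 1.61 and 1.27 in ap2-12, and 2.75, 2.72, 3.43 and 2.83 in rAP2-VENUS. The 3 genotypes did not overlap, with ap2-12 lowest and rAP2-VENUS highest. The differences were -0.70 for ap2-12 against WT, 0.74 for rAP2-VENUS against WT and 1.43 for rAP2-VENUS against ap2-12, each at the same exact permutation p and adjusted p as above. The SRS5 to SRS7 ratio overlapped between all genotypes, with WT, ap2-12 and rAP2-VENUS means of 0.23 ± 0.32 (SD), 0.62 ± 0.13 and 0.92 ± 0.39 (exact permutation, adjusted p of 0.098 to 0.309). So did the NGA3 to NGA4 ratio, at 0.93 ± 0.51, 1.26 ± 0.18 and 0.77 ± 0.39 (adjusted p of 0.129 to 0.657). None of the 12 tests passed 0.05 after adjustment. That does not show that the members of a pair acted alike.

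**Figure D4:**
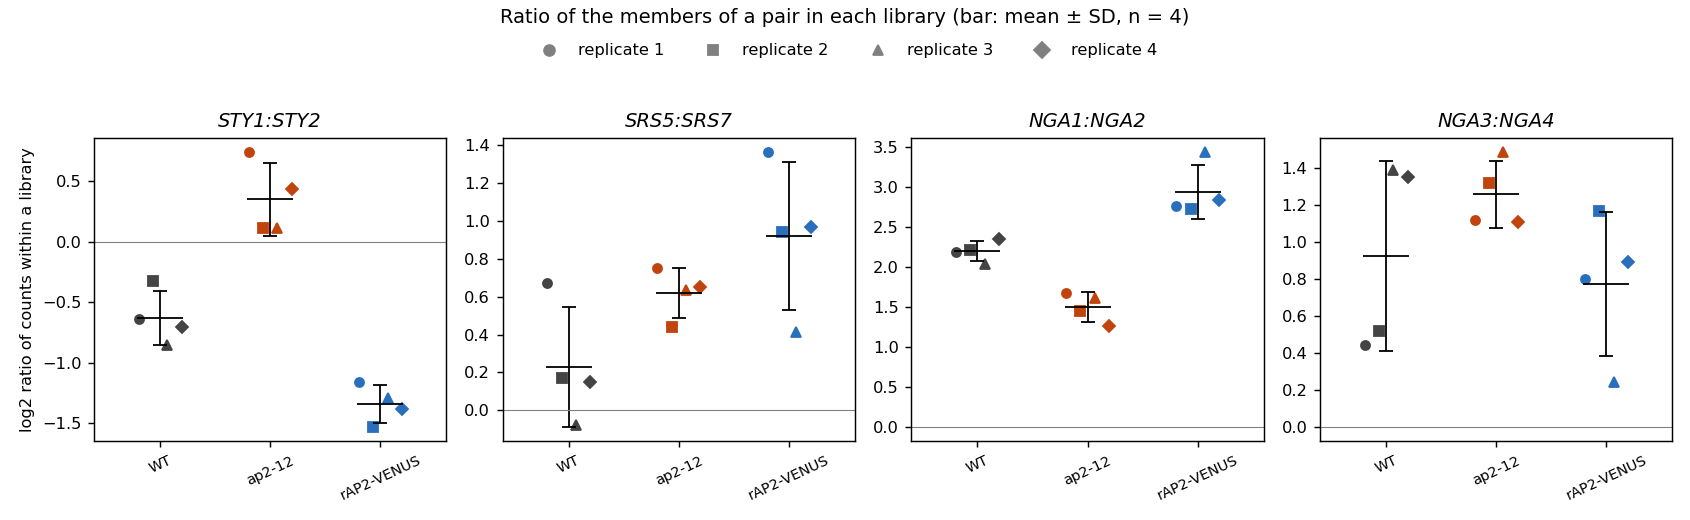
Log2 ratio of the counts of 2 family members within each library (y axis), by genotype (x axis); shapes give the replicate number, the bar the mean and the whiskers the SD of 4 libraries. The STY1:STY2 ratio is above 0 in all ap2-12 libraries and below 0 in all others, and the NGA1:NGA2 ratio runs from 1.27 in ap2-12 to 3.43 in rAP2-VENUS.

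Libraries of different replicate number differed in 29.5% of genes when genotype was in the model (edgeR). Among the members this term called SRS5 alone (adjusted p = 0.0442), whose mean deviations from the genotype means were 0.31, 0.08, -0.19 and -0.20 on the log2 scale for replicates 1 to 4. The spread of a member within a genotype, as a coefficient of variation, ran from 4.51% to 33.5%. Outside the members, the replicate term also called the clock genes LHY (edgeR adjusted p = 0.00069) and TOC1 (0.00103). From replicate 1 to replicate 4, LHY went from 224 to 22.8 CPM in WT, 136 to 20.8 in ap2-12 and 94.3 to 12.7 in rAP2-VENUS. TOC1 went from 59.0 to 103, 71.5 to 170 and 75.5 to 192 CPM. Whether time of day differed between replicates was not tested.

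In the rest of both families 1 gene was called, in 1 comparison. Of the 4 SHI/STY genes outside the members, SRS4 and SRS6 passed the filter and were not called in any comparison. SRS6 stood at 23.0 to 30.8 CPM in WT, 25.5 to 29.7 CPM in ap2-12 and 22.0 to 28.0 CPM in rAP2-VENUS. With 1.52 kb of exon, SRS6 shares 1532 exon bases, summed over AT3G54420 (opposite strand) and AT3G54440 (same strand). Its level is uncertain for that reason, since strand handling is not given. SRS3 had 0 to 3 counts in a library and SRS8 had 0. Of the 3 NGATHA-like genes (NGAL1 to NGAL3), relatives that also carry a B3 domain, none was called against WT. Their summed level was 24.2 to 28.6 CPM in WT, 25.3 to 28.0 CPM in ap2-12 and 18.2 to 20.1 CPM in rAP2-VENUS. The rAP2-VENUS sum thus lay below every other library, although each of the 3 genes alone overlapped WT. NGAL3 was lower in rAP2-VENUS than in ap2-12 (log2 fold change -0.77, SE 0.23, edgeR adjusted p = 0.0372).

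Partners of the style regulators were read from lists, chosen with earlier results of these data known. Over all genes, 5.65% were called higher and 9.59% lower in ap2-12 against WT. In rAP2-VENUS against ap2-12 these shares were 11.7% and 7.86%. The carpel margin bHLH list holds HEC1, HEC2, HEC3, SPT, ALC and IND, factors that act with style regulators in the carpel margins and the fruit. Of its 5 genes that passed the filter, 5 rose in ap2-12, none was called in rAP2-VENUS against WT, and 5 fell from ap2-12 to rAP2-VENUS. HEC1 was lower in rAP2-VENUS than in WT without overlap (log2 fold change -0.57), as were 2.63% of all genes. HEC3 rose by 2.28 (SE 0.22, edgeR adjusted p = 2.24e-05), HEC1 by 1.44 (0.000681), HEC2 by 1.27 (0.0043) and SPT by 0.86 (0.000887) on the log2 scale. The list median was 1.27, against 0.00 over all genes. IND had 0 to 5 counts. ALC, with 1.03 kb of exon, shares 870 exon bases with AT5G67100 on the opposite strand.

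Of 14 auxin synthesis genes, 6 passed the filter and 2 of them rose in ap2-12, YUC4 and TAA1, an aminotransferase upstream of the YUC enzymes. YUC4 (AT5G11320, chr5:3611247-3613640) stood at 7.92, 6.54, 5.12 and 5.12 CPM in WT, at 16.2, 13.5, 16.2 and 11.1 CPM in ap2-12, and at 5.96, 5.82, 6.65 and 5.45 CPM in rAP2-VENUS. The ap2-12 libraries stood above all others, and the WT and rAP2-VENUS libraries overlapped. The rise over WT was 2.32-fold (log2 fold change 1.22, SE 0.17, edgeR adjusted p = 0.000338), next to 2.29-fold for STY1. In rAP2-VENUS against WT, YUC4 was at -0.04 (edgeR adjusted p = 0.996) and STY1 at -0.58 (0.311). Whether STY1 had a part in the rise of YUC4 was not tested. TAA1 rose by 0.76 (SE 0.15, adjusted p = 0.00349), and both fell from ap2-12 to rAP2-VENUS (log2 fold change -1.26, adjusted p = 0.000181, and -0.46, adjusted p = 0.0429). The median of the 6 genes was -0.07 in ap2-12 against WT. YUC4 is shown because STY1 binds ACTCTAC in its promoter in Arabidopsis. The run below covers the 250 bases before its start, at chr5:3613641-3613890 on the minus strand in RefSeq TAIR10.1, and the capitals mark ACTCTAC, whose first base is at -77.
YUC4: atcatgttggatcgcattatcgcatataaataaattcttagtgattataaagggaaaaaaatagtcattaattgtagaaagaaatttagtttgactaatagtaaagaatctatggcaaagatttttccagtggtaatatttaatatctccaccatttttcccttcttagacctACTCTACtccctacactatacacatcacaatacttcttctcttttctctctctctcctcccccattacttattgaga
ACTCTAC on either strand was found in 2.18% of the 27443 windows and in none of the 10 members' windows. The match in YUC4 does not show binding in the apex.

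Of 11 style and transmitting tract regulators, 9 passed the filter and 3 rose in ap2-12. They were CRC (log2 fold change 0.86, edgeR adjusted p = 0.0127), a carpel and nectary gene, and the transmitting tract bHLH genes HAF (3.60, adjusted p = 0.000189) and BEE1 (3.76, adjusted p = 0.00526). HAF had 2 to 8 counts in a WT library and 28 to 110 in ap2-12, and BEE1 had 0 to 6 and 31 to 61, so their fold changes rest on few WT reads. HAF shares 122 exon bases with AT1G25320 on the opposite strand. The list median was 0.24. None of the 9 was called in rAP2-VENUS against WT, and the same 3 genes fell from ap2-12 to rAP2-VENUS.

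CIN-type TCP genes limit growth in leaf margins, as NGATHA genes do. Of the 8, all measured, 3 fell in ap2-12, TCP13 by 3.26 (edgeR adjusted p = 5.69e-06), TCP10 by 1.02 (0.000871) and TCP4 by 0.99 (0.0069) on the log2 scale. TCP13 stood at 4.58 to 7.97 CPM in WT and at 0.382 to 0.938 CPM in ap2-12. None was called in rAP2-VENUS against WT, and the same 3 were higher in rAP2-VENUS than in ap2-12. The list median was -0.48 in ap2-12 against WT.

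**Figure D5:**
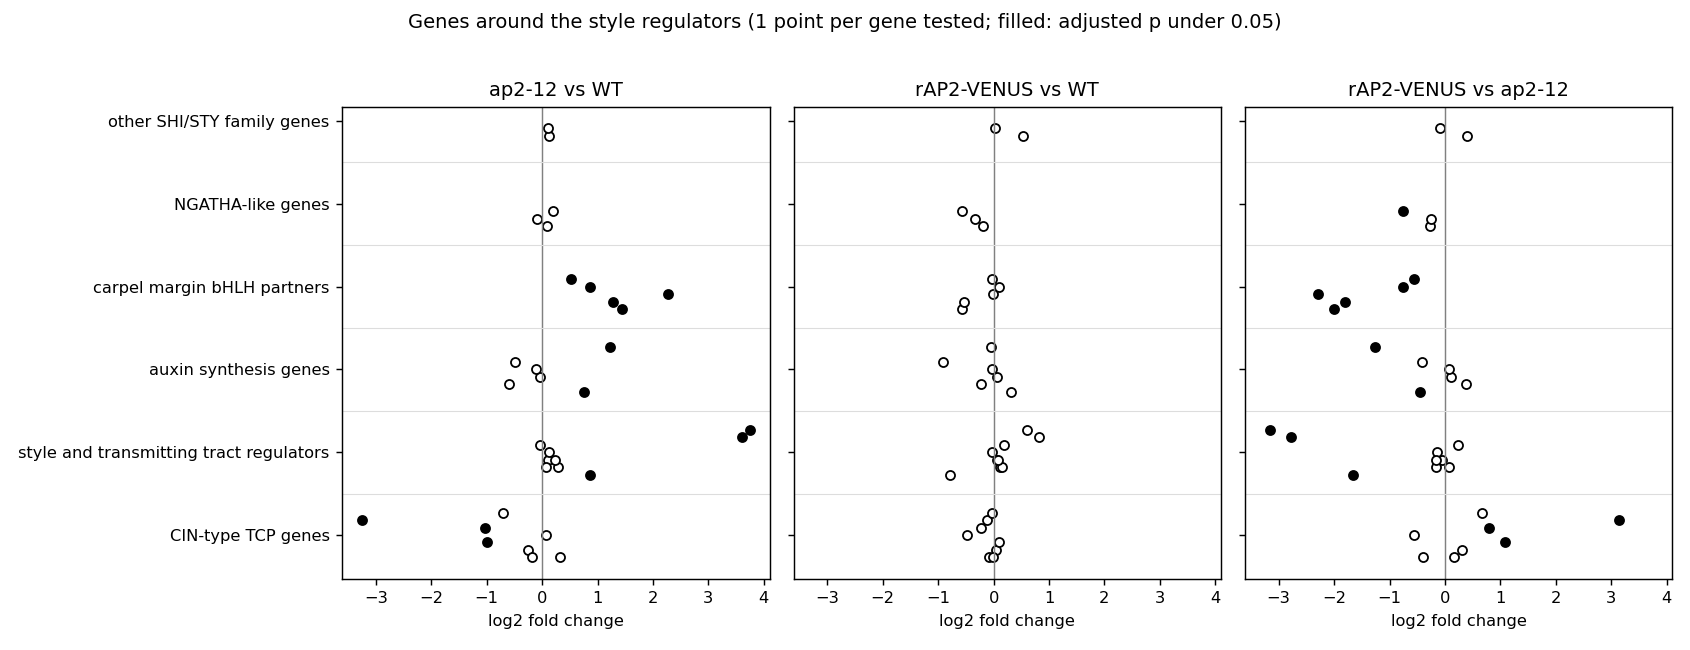
Log2 fold changes (x axis) of the genes tested in 6 lists around the style regulators, by comparison; each point is a gene, filled where edgeR's adjusted p is under 0.05. All 5 carpel margin bHLH genes tested lie above 0 in ap2-12 against WT, and no gene of the 6 lists is filled in rAP2-VENUS against WT.

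Markers of several tissues moved with ap2-12, where 5.65% of all genes were called higher and 9.59% lower than in WT. The 6 carpel and ovule markers (AG, SHP1, SHP2, STK, CRC and INO) all rose, and their summed level was 323 to 409 CPM in ap2-12, 128 to 192 CPM in WT and 123 to 140 CPM in rAP2-VENUS. In rAP2-VENUS against WT the log2 fold change was -0.79 for CRC, which is also in the style regulator list. It was 0.05 (AG) to 3.56 (INO) for the other carpel and ovule markers, with a list median of 0.32. INO had 0 counts in 3 of 4 WT libraries. Of 8 tapetum markers 5 rose, with sums of 336 to 639 CPM in ap2-12 and 180 to 336 CPM in WT. The 3 petal and stamen markers fell, at 177 to 200 CPM in ap2-12 and 253 to 307 CPM in WT, with UFO at 0 to 4 counts in an ap2-12 library. Of 5 green tissue markers 4 fell (3523 to 4403 CPM against 6704 to 9315 CPM in WT), all 6 xylem markers fell (18.6 to 29.4 CPM against 64.9 to 75.8 CPM), and 1 of 3 meristem markers tested fell (80.4 to 99.6 CPM against 119 to 205 CPM). None of these markers was called in rAP2-VENUS against WT. The xylem sum there was 97.1 to 101 CPM, above every WT library, and 5 of the 6 xylem markers were higher without overlap, where 2.39% of all genes were. Of the other markers 2 carpel and ovule, 2 petal and stamen and 1 green tissue marker were higher without overlap. The part of tissue makeup in the member differences was not tested.

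Genes whose log2 levels followed a member over the 12 libraries were ranked by Pearson's r among about 7079 genes with a symbol and a mean of at least 5 CPM, as a description, since genotype and replicate number shape all of them. STY1 was followed most closely by UGT84A3 (r = 0.989) and RIP5 (0.975). SRS5 was followed by NUB (0.975) and REM1 (0.971), SRS7 by AAH (0.967) and PCK1 (0.963), and STY2 by CYP96A1 (0.887) and CHR18 (0.793). For LRP1 they were AOAT2 (0.971) and TIC55-II (0.962), and for SHI SPS1F (0.936) and TRX1 (0.936). For NGA1 they were SMT3 (0.927) and MEF29 (0.924), for NGA2 Kin3 (0.929) and CKX7 (0.914), for NGA3 PK1B (0.871) and PSAT1 (0.869), and for NGA4 PUB43 (0.905) and PAI2 (0.886). Among the members, r was highest for STY1 and SRS5 over the 12 libraries (0.95). After subtracting genotype means it was 0.77 for that pair and highest for STY1 and NGA4 (0.84), which stood at 0.05 over the 12 libraries.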

How the data were processed

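The deposited values are raw read counts per gene, with TAIR10 gene identifiers per the file headers. For this work the submitters' processing notes list HTSeq, SAMtools and TopHat2. Versions, settings and strand handling are not given in the sources used here. The 210 organelle rows held 0 counts, and no row named anything but a gene. Symbols, exon lengths and sequences came from RefSeq TAIR10.1, in which 26719 of 27416 identifiers were found. The count table holds no coordinates.

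Genes passing edgeR's filterByExpr (18807) were scaled by TMM and tested with glmQLFit and glmQLFTest on genotype in 1 fit of all 12 libraries, with Benjamini-Hochberg adjustment over all genes kept. SE is the log2 fold change over the square root of F. The biological coefficient of variation was 0.174. Pair ratios used log2 of counts plus 0.5 and an exact 2-sided permutation. The pairs were set by name, because no protein table was used. The genes, lists and sequence motifs were chosen with earlier results of these data known. All members are named, with the called genes of each list (at most 4 per comparison by adjusted p) and the 2 genes most like each member. For marker lists, for SRS6 and IND, for the NGATHA-like sum and for genes with few counts, values were added after they were seen.

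The packages edgeR 4.0.16, DESeq2 1.42.0, limma 3.58.1 and data.table (version 1.17.8) ran in R 4.3.3. The fit was tested on simulated data without a replicate effect, with changes placed in genes above a set mean count. It called 42.2% to 46.8% of 1.5-fold changes and 85.9% to 90.9% of 2-fold changes over the comparisons. Differences near 1.5-fold can thus go uncalled. The simulated data held few changed genes, and 157 to 166 genes were called per comparison. In the data, the comparisons with ap2-12 called 2866 and 3686 genes, and adjustment is less strict with more calls. The rates therefore do not carry over to those comparisons. Replicates of a genotype were no duplicates, with a chi-square per degree of freedom of 5.22 to 48.0 over 18 pairs. Replicate numbers come from the labels. In rAP2-VENUS and WT, deviations of same-numbered libraries correlated at 0.69, 0.26, 0.25 and 0.50 across genes. The main fit and the pair ratios still used genotype only, without the number. Alternatives were the replicate block, other scalings, DESeq2, other low-count filters, only 2 genotypes, and leaving out each library. Leaving out replicate 1 of all genotypes was added after seeing the data.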

Additional observations from a re-analysis of the deposited data

Results flagged for a closer look

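Of 45 groups of 4 libraries screened, 4 had a library farther from the rest than Dixon's 95% limit allows, and chance gives about 1 in 20. NGA2 was at 3.77 CPM in WT replicate 4, with the other WT libraries at 4.75 to 4.92 CPM. NGA2 was at 1.81 CPM (19 counts) in rAP2-VENUS replicate 3, with the others at 2.94 to 3.04 CPM. The NGA1:NGA2 log2 ratio in that same library was 3.43, with the others at 2.72 to 2.83. AP2 was at 92.8 CPM in WT replicate 1, with the other WT libraries at 42.3 to 50.3 CPM. No cause was tested for any of the 4.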

How the results depend on the processing

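The calls of STY1, SRS5 and LRP1 in ap2-12 against WT, and of STY1, SRS5, SRS7, LRP1 and NGA2 in rAP2-VENUS against ap2-12, held under all 16 alternatives. Other scalings moved the median of all genes by at most 0.04 (log2) and no member call. Without a single library, 2038 to 3143 genes (3 to 6 members, 3 without ap2-12 replicate 2) were called in ap2-12 against WT, 55 to 108 genes (0 to 1 member) in rAP2-VENUS against WT, and 2792 to 3723 genes (5 to 7 members) in rAP2-VENUS against ap2-12.

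For rAP2-VENUS against WT, DESeq2 called 340 genes and 2 members (SRS7 and NGA2). Without replicate 1 of all genotypes 54 genes and 0 members were called, and a fit of only the 2 genotypes called 0 members. In ap2-12 against WT that smaller fit lost SHI (adjusted p = 0.0576) and NGA1 (0.0915), and leaving out replicate 1 lost SHI (0.0789). In rAP2-VENUS against ap2-12 NGA3 was lost in the smaller fit (0.0511) and without replicate 1 (0.103), where NGA1 was gained (0.044).

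With a replicate block in the fit, the 3 comparisons called 5419, 424 and 6215 genes, in place of 2866, 118 and 3686. The block added NGA1 in rAP2-VENUS against ap2-12 (adjusted p = 0.0223) and changed no other member call. Deviations of same-numbered libraries correlated at 0.64, 0.03, 0.51 and 0.45 in ap2-12 and WT. In rAP2-VENUS and ap2-12 they correlated at 0.58, 0.10, 0.07 and 0.59. Libraries of the same number thus shared part of their deviations in these comparisons too, unevenly between numbers. The main fit did not take the number into account in any comparison. An exact permutation of pair ratios within replicate number cannot go below p = 0.125.

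Uncalled differences changed sign in rAP2-VENUS against WT. Without a single library SHI spanned -0.16 to 0.12 and NGA4 -0.18 to 0.13. SHI went to 0.20 without replicate 1 of all genotypes, 0.12 without WT replicate 1 and 0.06 without rAP2-VENUS replicate 1. NGA4 went to 0.08, to 0.09 without WT replicate 1, 0.13 without WT replicate 2 and 0.06 without rAP2-VENUS replicate 2. The causes were not tested.

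Without a single library the pair differences, in the order ap2-12 against WT, rAP2-VENUS against WT and rAP2-VENUS against ap2-12, were as follows. STY1:STY2 spanned 0.85 to 1.09, -0.79 to -0.61 and -1.77 to -1.56. NGA1:NGA2 spanned -0.75 to -0.62, 0.57 to 0.81 and 1.27 to 1.51. SRS5:SRS7 spanned 0.29 to 0.54, 0.55 to 0.86 and 0.15 to 0.47. NGA3:NGA4 spanned 0.17 to 0.48, -0.31 to 0.026 and -0.61 to -0.30, with the sign change at 0.0023 without WT replicate 3 and 0.026 without rAP2-VENUS replicate 3. In 15 of these 96 cases the adjusted p was 0.049, since more tests then reached the smallest p. Members with 19 counts in a library leave counting error as a limit, NGA2 most of all.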
